A study of Mus musculus with 3 samples.

Results

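Neutrophils were picked out of a droplet single-cell RNA data set of mouse liver by their own transcripts. A barcode counted as a neutrophil when it held at least 4 UMIs (unique molecular identifiers, each standing for 1 captured mRNA molecule) summed over S100a8, S100a9, Retnlg, Csf3r, Cxcr2, Mmp9 and Mmp8. It also had to hold 0 UMIs of Clec4f, Cd3e, Cd79a, Kdr and Siglech, which mark Kupffer cells, T cells, B cells, endothelial cells and plasmacytoid dendritic cells, and at most 40% mitochondrial UMIs. The rule found 327 neutrophil barcodes among 29572 kept barcodes and 30000 in all. The barcodes were chosen by measured values of these 12 genes, so the levels of those genes are given as a description and support nothing.

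Neutrophils are short-lived phagocytes that leave the bone marrow filled with granules and enter tissues along chemokine gradients. Granule proteins are transcribed during marrow maturation in a fixed order, azurophil granules first, then specific granules, then gelatinase granules, so that the mRNA of the early granule proteins marks young cells. In liver they patrol the sinusoids, and like other leukocytes they answer type I interferon by transcribing antiviral genes.

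The 3 libraries came from livers of male C57BL/6 mice aged 9 weeks, with 1 library for each Adar1 genotype. All 3 groups carried Ifih1-/-, which removes the double-stranded RNA sensor MDA5, and Alb-Cre+, a recombinase driven by the albumin promoter of hepatocytes. They differed in Adar1, the gene of an enzyme that edits double-stranded RNA: Adar1 wt/wt, Adar1 wt/flox and Adar1 flox/flox. Since Alb-Cre acts in hepatocytes, the neutrophils themselves are not the cells in which the floxed allele is recombined. With 1 library per group no difference has a replicate check and no test was possible. Every interval below is a 95% interval for counting error only. Values in threes stand in the order wt/wt, wt/flox, flox/flox.

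Each library held 10000 barcodes with a lower edge of 727, 721 and 636 UMIs, and the kept barcodes numbered 9878, 9920 and 9774. Adar, the targeted gene, gave 0, 4 and 1 UMIs in the neutrophils and 12.7, 20.6 and 41.1 CPM (UMIs scaled to a common total) in all other barcodes, so it was highest there in the library labelled flox/flox. Which exons are floxed is not stated, and a tag at the 3' end can miss a deletion elsewhere in the gene, so the Adar level is no check of the genotype. Ifih1 gave 0 neutrophil UMIs in each library. Between pairs of libraries 20, 32 and 27 barcode sequences were shared, and no sequence was a neutrophil in 2 libraries.

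The neutrophils numbered 86, 187 and 54. They made up 0.871% of kept barcodes in wt/wt (exact Clopper-Pearson interval 0.697 to 1.07), 1.89% in wt/flox (1.63 to 2.17) and 0.552% in the library labelled flox/flox (0.415 to 0.720). The share was thus highest in wt/flox and lowest in flox/flox, the wt/flox interval lay apart from both others, and those of wt/wt and flox/flox overlapped. Set against other myeloid cells, neutrophils were 27.7% of 310 neutrophil, Kupffer and monocyte barcodes in wt/wt, 32.1% of 582 in wt/flox and 10.5% of 513 in flox/flox. Kupffer cells were counted by at least 4 UMIs of their markers and monocytes by at least 3, and monocytes numbered 39, 140 and 203. The cells were prepared by collagenase perfusion, a slow spin, lysis of red cells and a Percoll gradient, and each library holds a fixed number of barcodes. Neutrophils sat close to the lower edge, with a median of 824, 849 and 776.5 UMIs, so preparation and edge can set these shares, and their part was not tested. Among barcodes with at least 1000 UMIs the neutrophil shares were 0.218%, 1.25% and 0.250%, and flox/flox was then not below wt/wt. Of the neutrophils 79 of 86, 142 of 187 and 44 of 54 lay under that limit, so these shares rest on few barcodes.

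The median neutrophil held 27, 22 and 20 UMIs of the 7 marker genes, and the highest held 99, 210 and 175. Few barcodes lay at the threshold: 1, 2 and 3 barcodes held 3 marker UMIs and stayed out, while 1, 3 and 1 held 4 and were kept. At least 2 different marker genes were seen in 85 of 86, 186 of 187 and 53 of 54 members. Another 1, 11 and 3 barcodes had enough marker UMIs but also a UMI of an excluded gene. No doublet caller was run. Members with over 2 times the median UMI count numbered 1, 3 and 4.

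**Figure D1:**
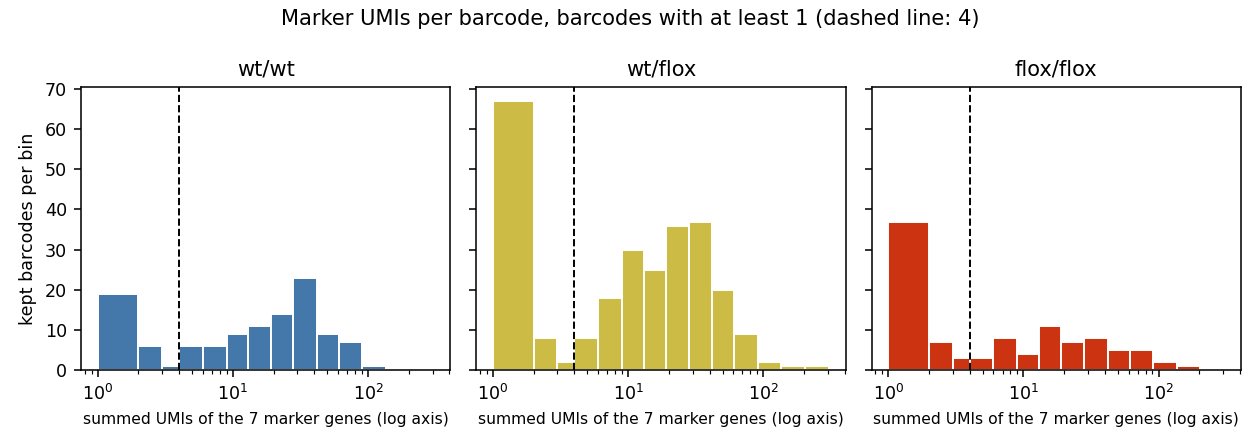
Summed UMIs of the 7 marker genes per barcode (x axis, log scale) against the number of kept barcodes in each bin (y axis), for barcodes without UMIs of the excluded genes and with at least 1 marker UMI. Most barcodes left of the dashed line at 4 hold 1 UMI, and the neutrophils form a separate hump with medians of 27, 22 and 20.

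S100a8 and S100a9, the subunits of the calcium- and zinc-binding alarmin calprotectin, had the most UMIs of the 7 marker genes. S100a9 stood at 18675, 15931 and 17170 CPM, against 1.46, 15.3 and 2.47 CPM in all other barcodes. S100a8 stood at 11858, 10156 and 13934 CPM. Retnlg, a secreted resistin-like protein, had 1434, 1484 and 1921 CPM. Csf3r, the receptor for the granulocyte growth factor G-CSF, was at 656, 546 and 607 CPM, and Cxcr2, the receptor for neutrophil-attracting chemokines, at 464, 357 and 485 CPM. The levels of these 5 genes lay within 1.5-fold of each other between the libraries.

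Beyond the genes of the rule, the genes with the highest ratio of neutrophil to other barcodes included several known from mature neutrophils. Genes had to be seen in at least 20% of neutrophils to be ranked, and the 25 leading ones included all the marker genes of the rule except Mmp8, seen in 15.3% of neutrophils. Hdc, which makes histamine, was 129-fold above other barcodes, and Il1b, the cytokine interleukin-1 beta, 99.8-fold. Pglyrp1, a granule protein that binds bacterial cell walls, was 85.0-fold above, Mxd1, a transcriptional repressor of the MYC network, 69.5-fold, and Slpi, an inhibitor of neutrophil elastase, 67.4-fold. Tyrobp, a signalling adaptor of myeloid receptors, was seen in 63.9% of neutrophils but was only 12.8-fold above other barcodes.

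**Figure D2:**
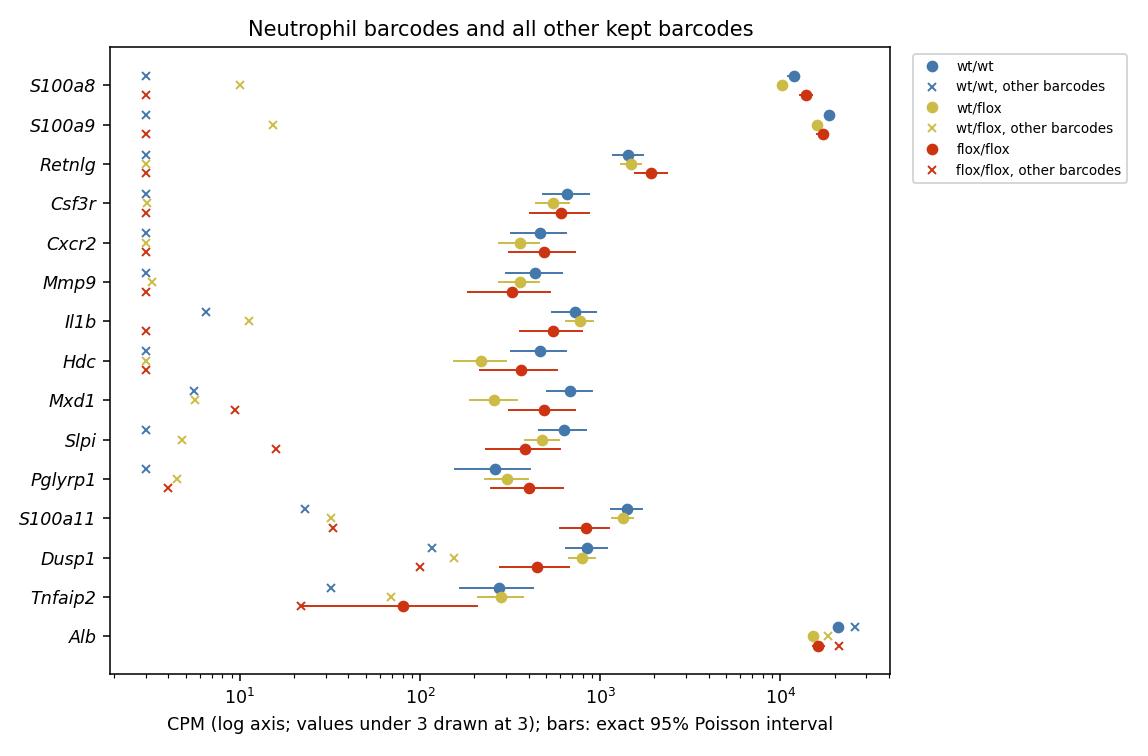
CPM of 15 genes (x axis, log scale) in neutrophil barcodes (circles, with exact Poisson intervals) and in all other kept barcodes (crosses) of the 3 libraries. Marker genes such as Csf3r and Cxcr2 lie far above the crosses, Alb lies just below them, and S100a11, Dusp1 and Tnfaip2 are lower in flox/flox than in the other libraries.

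Neutrophil droplets held much hepatocyte RNA. Summed UMIs of 12 hepatocyte markers, Alb and Apoa1 among them, were 9.04%, 9.23% and 7.65% of all UMIs in neutrophil barcodes, against 10.6%, 10.6% and 9.89% in all other barcodes. If all hepatocyte RNA in these droplets is free RNA with the makeup of the other barcodes, 85.5%, 86.8% and 77.4% of neutrophil UMIs are accounted for by it, which leaves 14.5%, 13.2% and 22.6% for the neutrophils. That estimate rests on the 12 markers alone. A gene at similar CPM in neutrophils and in other barcodes therefore cannot be assigned to neutrophils. The other barcodes' level is given below for some of the comparisons, not for all. Genes were called neutrophil-enriched when their mean CPM was at least 2 times that of other barcodes, which held for 280 of 2321 measured genes (at least 20 UMIs over the 3 libraries).

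Markers of most other cell types were at or below their level in other barcodes. Kupffer cell markers, 11 genes, gave 19, 38 and 6 UMIs (260, 219 and 121 CPM against 516, 655 and 728 CPM), with Clec4f at 0 by the rule. Markers of T and NK cells gave 14, 8 and 4 UMIs, B cell markers 13, 59 and 17, endothelial markers 2, 31 and 0, stellate cell and fibroblast markers 1, 8 and 3, and cholangiocyte markers 1, 10 and 2. Eosinophil, basophil and mast cell markers gave 0, 1 and 1 UMIs, with 10 of 11 genes at 0 in all libraries. Monocyte markers, 9 genes, gave 21, 68 and 20 UMIs (287, 391 and 404 CPM), against 393, 293 and 610 CPM, so that they exceeded the other barcodes in wt/flox. The dendritic cell list gave 60, 143 and 35 UMIs (820, 822 and 708 CPM against 451, 588 and 758), with 4 of 10 genes at 0, and holds the widely expressed Cst3 and Bst2. Erythroid and platelet markers differed most, with 8, 528 and 3 UMIs. Hbb-bs, a haemoglobin gene, gave 0, 251 and 1 UMIs in neutrophils and 1013, 4965 and 121 CPM in other barcodes. The part of these transcripts in the differences below was not tested.

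Changes between libraries were read against all measured genes. With a ratio of at least 1.5-fold as the limit, 20.3% of 2272 measured genes were higher and 20.9% lower in flox/flox than in wt/wt, 18.9% of 2321 higher and 21.2% lower in flox/flox than in wt/flox, and 20.3% higher and 13.7% lower in wt/flox than in wt/wt. Among neutrophil-enriched genes, 28.7% were higher and 13.6% lower in flox/flox than in wt/wt, 32.5% and 11.8% in flox/flox against wt/flox, and 15.7% and 19.3% in wt/flox against wt/wt. Many of these genes have about 20 UMIs, and a count past the limit is no evidence of a difference. The enriched genes had median log2 ratios of 0.24, 0.31 and -0.08 in these comparisons. Higher genes were 67.8% of the enriched genes past the limit for flox/flox against wt/wt and 73.4% against wt/flox. After subtraction of the expected free RNA they were 27.6% and 29.1%, with medians of -0.35 and -0.40. The subtraction lowers the log2 ratios of genes absent from free RNA by 0.640 and 0.778 and moves other genes by other amounts, and the medians of all measured genes became -0.19 and 0.13. The direction of small changes in flox/flox thus depends on the scaling, and values after subtraction are given below for the genes that matter most.

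**Figure D3:**
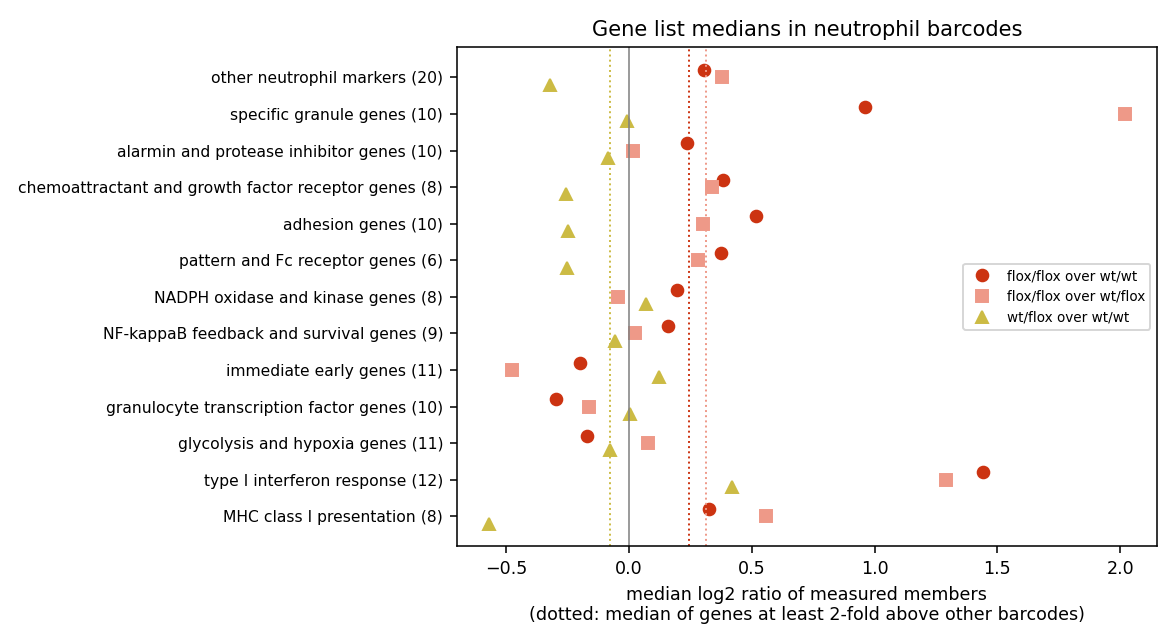
Median log2 ratio of the measured members of 13 gene lists (x axis; number of members in parentheses) in neutrophil barcodes, for the 3 comparisons. Dotted lines mark the medians of neutrophil-enriched genes (0.24, 0.31 and -0.08). Specific granule genes and the type I interferon response lie farthest to the right for flox/flox.

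Chemoattractant and growth factor receptors, which guide neutrophils and keep them alive, had 156, 310 and 125 UMIs over 20 genes (2131, 1783 and 2528 CPM), against 138, 165 and 202 CPM in other barcodes. Of the 8 measured members, 2 were higher and 0 lower in flox/flox than in wt/wt, and 3 higher and 0 lower than in wt/flox, where 28.7% and 32.5% of all enriched genes were higher. The log2 ratio of sums against wt/flox was 0.50 (0.19 to 0.81), and -0.24 after free RNA was subtracted. Il1r2, the decoy receptor for interleukin-1, had 6, 6 and 13 UMIs (82.0, 34.5 and 263 CPM), a log2 ratio of 1.68 (0.19 to 3.36) against wt/wt and 2.93 (1.43 to 4.61) against wt/flox. These 2 ratios are without subtraction. Il1r2 was seen in only 0.041%, 0.031% and 0.062% of other barcodes, and subtraction lowers ratios of genes absent from free RNA by 0.640 and 0.778. The first shift is larger than the bound of 0.19, so the rise against wt/wt depends on the scaling. Ptafr, the receptor for platelet-activating factor, had 2, 13 and 10 UMIs. Ccr1, a receptor for inflammatory chemokines, had 15, 25 and 14 UMIs. Only 9 of 54 flox/flox neutrophils held an Il1r2 UMI, against 5 of 86 and 6 of 187.

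Adhesion genes, which include the integrin genes Itgam and Itgb2, had 102, 238 and 88 UMIs (1393, 1369 and 1780 CPM). Pattern and Fc receptor genes had 2609, 2565 and 2892 CPM, and among them Fcer1g, the shared gamma chain of Fc receptors, had 33, 91 and 37 UMIs (451, 523 and 748 CPM). The log2 ratios of both lists for flox/flox against wt/wt, 0.35 (-0.08 to 0.78) and 0.15 (-0.17 to 0.47), had intervals that held 0. NADPH oxidase and kinase genes, which serve the oxidative burst, had 1407, 1294 and 1335 CPM. The main neutrophil cytokine transcript, Il1b, had 53, 134 and 27 UMIs (724, 771 and 546 CPM) and was seen in 30 of 86, 82 of 187 and 19 of 54 neutrophils. Its intervals between libraries held 0. Ccl6, a chemokine, had 33, 103 and 18 UMIs.

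Several other lists moved by less than 1.5-fold. A list of 30 other neutrophil genes, with 20 measured, stood at 7869, 7269 and 8696 CPM, and 7 members were higher and 2 lower in flox/flox than in wt/wt. Of all enriched genes 28.7% were higher and 13.6% lower in that comparison. Alarmin and protease inhibitor genes, led by S100a8 and S100a9, stood at 36654, 32827 and 37232 CPM. Gelatinase granule genes, among them Mmp9, stood at 2063, 1858 and 1739 CPM, with a log2 ratio of -0.25 (-0.65 to 0.15) for flox/flox against wt/wt. Other barcodes held that list at 1427, 1265 and 1295 CPM, so much of its signal can be free RNA. Granulocyte transcription factor genes, such as Spi1 and the Cebp family, stood at 2842, 2335 and 2508 CPM, and NF-kappaB feedback and survival genes at 3006, 2726 and 3276. The interval for flox/flox against wt/wt held 0 in each of these 5 lists. Against wt/flox it did not hold 0 for the other neutrophil genes, 0.26 (0.10 to 0.42), and the alarmin list, 0.18 (0.11 to 0.26), but both turned after free RNA was subtracted, to -0.085 and -0.55. Granulocyte transcription factor genes were lower in wt/flox than in wt/wt, at -0.28 (-0.53 to -0.04). MHC class I presentation genes, which show peptides to T cells, stood at 3415, 3554 and 5117 CPM in neutrophils and at 2871, 3717 and 5046 CPM in other barcodes. Their log2 ratio was 0.58 (0.33 to 0.84) against wt/wt, and -0.31 after free RNA was subtracted.

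The transcripts of specific granules were carried by a few barcodes. Camp, Ngp and Ltf encode cathelicidin, neutrophilic granule protein and lactoferrin, proteins of the specific granules. At least 10 UMIs summed over these 3 genes were found in 3 of 86 wt/wt, 2 of 187 wt/flox and 4 of 54 flox/flox neutrophils, which is 3.49% (0.725 to 9.86), 1.07% (0.130 to 3.81) and 7.41% (2.06 to 17.9). These granule-rich barcodes held 14 to 24, 14 to 43 and 14 to 44 such UMIs, and the next barcode held 1, 1 and 3. They accounted for 58 of 59, 57 of 58 and 105 of 110 Camp, Ngp and Ltf UMIs. The 3 genes gave 0 UMIs in all 29245 other kept barcodes, which allows a share of barcodes with a UMI of up to 0.0103%. Granule transcripts thus split the neutrophils into 9 barcodes with many and 318 with almost none, and the limit of 10 UMIs was set after seeing the values.

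**Figure D4:**
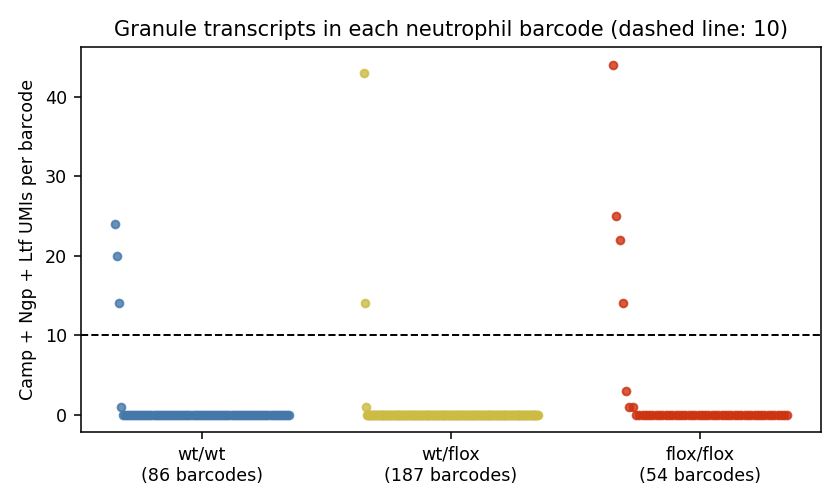
Camp, Ngp and Ltf UMIs (y axis) in each of the 327 neutrophil barcodes, ordered from high to low within each library (x axis). 9 barcodes lie above the dashed line at 10 and the rest lie at 0 to 3.

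The 9 granule-rich barcodes resembled other neutrophils in depth but held more marker RNA. Their median was 939 UMIs against 829 in the other 318, and their median marker count was 83 against 22 UMIs. Hepatocyte markers made up 7.31% of their UMIs, against 8.97%. Other transcripts were high in the same barcodes. Lcn2, the iron-chelating lipocalin, had 53 of its 128 UMIs there and was seen in 9 of 9, against 49 of 318 of the others, a log2 ratio of 4.50 (3.96 to 5.02). Ifitm6 had 14 UMIs in 6 of 9 barcodes and 13 UMIs in 11 of 318. Mmp8, neutrophil collagenase, had 22 UMIs in 7 of 9 and 56 UMIs in 43 of 318, and Cybb, the membrane subunit of the oxidase, 9 and 15 UMIs. In the opposite direction, Srgn, the core protein of a secretory granule proteoglycan, had 0 UMIs in the 9 barcodes and 278 in the others. Il1b had 0 and 214 UMIs, and Dusp1 0 and 222. At the level of the other neutrophils (967, 744 and 772 CPM), several UMIs of each would be found in the 9010 UMIs of the granule-rich barcodes. The azurophil granule genes, among the earliest in maturation, gave 1, 2 and 0 UMIs in the 3 libraries, and a limit of 3 UMIs for the 0 seen in flox/flox corresponds to 60.7 CPM.

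Summed by library, specific granule genes in neutrophils had their highest level in the library labelled flox/flox. Their 14 genes had 273, 533 and 302 UMIs (3730, 3065 and 6108 CPM), against 999, 1207 and 1186 CPM in other barcodes, where haptoglobin (Hp) and lysozyme (Lyz2) made up part of the signal. Monocytes held the list at 6369.5, 8120.5 and 4683.8 CPM, above the neutrophils in wt/wt and wt/flox, so a high sum is not particular to neutrophils. The monocyte log2 ratio for flox/flox against wt/wt was -0.44 (-0.61 to -0.28). In neutrophils the log2 ratio of sums was 0.71 (0.47 to 0.95) for flox/flox against wt/wt, 0.99 (0.79 to 1.20) against wt/flox and -0.28 (-0.50 to -0.07) for wt/flox against wt/wt. After subtraction of free RNA the first of these was 0.21 (-0.06 to 0.48), an interval that held 0, and the second 0.59 (0.35 to 0.82). Mmp8 is in the list and also helped to choose the barcodes, and the 13 genes without it gave 0.67 (0.42 to 0.92), 0.91 (0.69 to 1.13) and -0.24 (-0.46 to -0.016). Of 10 measured members, 8 were higher and 1 lower in flox/flox than in wt/wt, and 7 higher and 1 lower than in wt/flox. Of all measured genes 20.3% and 18.9% were higher and 20.9% and 21.2% lower in these comparisons. Of enriched genes 28.7% and 32.5% were higher and 13.6% and 11.8% lower. Members can pass the 20-UMI minimum through the library in which they are high, so these counts only describe. Without the 9 granule-rich barcodes the 3 log2 ratios were 0.042, -0.0027 and 0.045, so the difference of the list rests on those barcodes. The shares of granule-rich barcodes, 4 of 54 against 3 of 86 and 2 of 187, have intervals that overlap. The intervals of the list ratios treat each UMI as a separate count and leave out that granule UMIs come in clumps from few barcodes.

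Camp and Ngp had their highest levels in flox/flox. Camp (chr9:109847379-109849617, minus strand, mm10) had 7, 21 and 42 UMIs (95.6, 121 and 849 CPM), a log2 ratio of 3.15 (1.98 to 4.55) against wt/wt and 2.81 (2.03 to 3.64) against wt/flox, from 2, 2 and 6 barcodes. Ngp (chr9:110419747-110423012, plus strand) had 39, 28 and 52 UMIs (533, 161 and 1052 CPM), with ratios of 0.98 (0.35 to 1.62) and 2.71 (2.02 to 3.42). After free RNA was subtracted the Ngp ratio against wt/wt was 0.34 (-0.29 to 0.98), an interval that held 0, while that against wt/flox was 1.93 (1.24 to 2.65). Without the granule-rich barcodes no ratio could be formed for Camp, Ngp and Ltf. The intervals of Camp and Ngp treat each UMI as a separate count, so they leave out the variation between those few barcodes. Mmp8 and Lcn2 were spread wider. Mmp8, whose level is only a description since the rule used it, had 21, 26 and 31 UMIs (287, 150 and 627 CPM) in 15, 22 and 13 barcodes. Its log2 ratio against wt/wt was 1.13 (0.28 to 2.00) with and 1.08 (0.0028 to 2.18) without the granule-rich barcodes. After free RNA was subtracted it was 0.49 (-0.36 to 1.36), an interval that held 0. Lcn2 had 37, 43 and 48 UMIs (505, 247 and 971 CPM) in 15, 27 and 16 barcodes. Its ratio against wt/wt was 0.94 (0.29 to 1.60). The ratio was 0.64 (-0.33 to 1.60) without those barcodes and 0.28 (-0.38 to 0.94) after subtraction, and both of these intervals held 0. Lcn2 was also higher in the other barcodes of flox/flox, at 3.03, 7.94 and 28.4 CPM.

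Promoters of these granule genes are shown because their transcripts occur in the same barcodes. The sequences are the 100 bases upstream of the start in RefSeq's table (GRCm38.p6), on the strand of the gene, with matches to TTGCNNAA, a form of the C/EBP motif, in capitals. C/EBP factors are known to direct granule gene transcription in maturing granulocytes. The motif was searched on both strands in 250 bases upstream, a choice made after seeing the values. It was found in 5 of 13 specific granule genes with a promoter (38.5%), in 10.8% of 27025 genes and in 9.56% of 32851 windows. RefSeq's starts differ from those of the GENCODE gene spans given above, so that the Camp window lies within the span printed for Camp and the Ngp window runs past its start.
Ngp, chr9:110419708-110419807, plus strand: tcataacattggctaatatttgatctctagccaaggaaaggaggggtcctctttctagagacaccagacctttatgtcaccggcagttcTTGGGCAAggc
Ltf, chr9:111019192-111019291, plus strand: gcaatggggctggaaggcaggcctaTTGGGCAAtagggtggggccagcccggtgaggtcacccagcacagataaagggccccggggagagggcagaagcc
Mmp8, chr9:7558329-7558428, plus strand: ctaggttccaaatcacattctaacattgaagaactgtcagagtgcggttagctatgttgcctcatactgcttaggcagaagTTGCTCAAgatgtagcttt
Camp, chr9:109849457-109849556, minus strand: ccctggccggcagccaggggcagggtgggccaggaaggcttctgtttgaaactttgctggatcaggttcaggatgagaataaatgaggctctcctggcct
Ngp holds a second match further upstream, while the Camp window holds none. A match describes the letters only, and no match says only that these letters are not in the window.

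Interferon-response genes, summed as a list, were higher in neutrophils of the library labelled flox/flox. The list held 54 genes, of which 52 were in the files, and its sum was 181, 575 and 340 UMIs (2473, 3307 and 6876 CPM). All other barcodes of the same libraries stood at 1793, 2547 and 4782 CPM, so the list was higher in flox/flox outside the neutrophils too. The log2 ratio in neutrophils was 1.48 (1.21 to 1.74) against wt/wt, 1.06 (0.86 to 1.25) against wt/flox, and 0.42 (0.18 to 0.67) for wt/flox against wt/wt. Of 12 measured members, 9 were higher and 0 lower in flox/flox than in wt/wt, 8 higher and 1 lower than in wt/flox, and 3 higher and 2 lower in wt/flox than in wt/wt. Of all measured genes 20.3%, 18.9% and 20.3% were higher and 20.9%, 21.2% and 13.7% lower in these comparisons. Of enriched genes 28.7%, 32.5% and 15.7% were higher and 13.6%, 11.8% and 19.3% lower. A gene can pass the 20-UMI minimum through the library in which it is high, so the member counts only describe.

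The list was split, after its values were seen, by enrichment over other barcodes. Enrichment is a mean over the 3 libraries, so a member can pass through a high value in flox/flox alone, and the difference in ratio between the sets is partly fixed by the choice. The 32 members with UMIs that were not enriched stood at 1817, 2519 and 4085 CPM in neutrophils and at 1661, 2284 and 4242 CPM in other barcodes, close to the surroundings. Ifitm3, which blocks viral entry, was at 820, 1162 and 1557 CPM against 755, 1046 and 1529 CPM, and Ly6e, a membrane-anchored antiviral protein, at 232, 339 and 910 against 289, 373 and 1020 CPM. Bst2, another interferon-response gene, was not higher in flox/flox neutrophils, with 16, 57 and 10 UMIs (219, 328 and 202 CPM). Its log2 ratios there, -0.11 (-1.41 to 1.12) against wt/wt and -0.70 (-1.83 to 0.29) against wt/flox, had intervals that held 0. Against wt/wt the Bst2 ratio was 0.92 in monocytes, 1.12 in Kupffer cells and 0.88 in all remaining barcodes. The 16 enriched members had 48, 137 and 138 UMIs (656, 788 and 2791 CPM), where free RNA would give 7.99, 39.0 and 19.9 UMIs. At least 1 of their UMIs was seen in 31 of 86 (36.0%), 78 of 187 (41.7%) and 42 of 54 (77.8%) neutrophils. Their log2 ratio was 2.09 (1.61 to 2.59) against wt/wt and 1.82 (1.47 to 2.18) against wt/flox, while wt/flox against wt/wt was 0.26 (-0.22 to 0.77). Subtraction of free RNA left 1.49, 1.30 and 0.18, and removal of the granule-rich barcodes 2.20, 1.86 and 0.34.

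Slfn4, a Schlafen-family gene of myeloid cells (chr11:83175186-83190216, plus strand), was nearly absent from other barcodes. It gave 10, 12 and 23 UMIs (137, 69.0 and 465 CPM), against 0.105, 0.611 and 1.14 CPM in other barcodes. These UMIs lay in 7 of 86, 10 of 187 and 15 of 54 neutrophils (8.14%, 5.35% and 27.8%). After every barcode was thinned to 600 UMIs the shares were 5.81%, 3.74% and 22.2%, so flox/flox stood above both others at equal total UMIs. The part of UMIs beyond free RNA was not equal, at 14.5%, 13.2% and 22.6%, and its part in the shares was not tested. The log2 ratio was 1.77 (0.64 to 3.00) against wt/wt and 2.75 (1.69 to 3.89) against wt/flox. After free RNA was subtracted these were 1.13 (-0.0026 to 2.36) and 1.98 (0.91 to 3.13), so the interval against wt/wt then held 0. In monocytes Slfn4 gave 1, 4 and 2 UMIs and in Kupffer cells 0, 1 and 2. Schlafen genes are related neighbours on mouse chromosome 11, and reads shared between copies can be lost or split.

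Other enriched members of the list were also counted in few UMIs. Ifi27l2a, a small interferon-induced mitochondrial protein, had 5, 28 and 28 UMIs (68.3, 161 and 566 CPM) in 5, 14 and 19 neutrophils, against 26.7, 59.4 and 124 CPM in other barcodes. It stood higher in monocytes, at 539, 699 and 858 CPM, and in Kupffer cells, at 232, 434 and 861 CPM. Its log2 ratio in neutrophils was 3.05 (1.66 to 4.78) against wt/wt and 1.81 (1.01 to 2.62) against wt/flox. Oasl2, of the oligoadenylate synthetase family, had 6, 9 and 11 UMIs (82.0, 51.8 and 222 CPM), each in a separate neutrophil, which is 6.98%, 4.81% and 20.4% of them. After thinning Oasl2 was seen in 2.33%, 3.21% and 16.7%. Rsad2, the antiviral enzyme viperin, had 1, 8 and 9 UMIs (13.7, 46.0 and 182 CPM). Slfn1, another Schlafen gene, had 6, 23 and 11 UMIs, with ratios of 1.44 (-0.12 to 3.16) against wt/wt and 0.75 (-0.43 to 1.84) against wt/flox whose intervals held 0. Isg15, a ubiquitin-like modifier, had 4, 11 and 8 UMIs (54.7, 63.3 and 162 CPM), against 10.4, 20.1 and 70.1 CPM in other barcodes. With so few UMIs, single ratios are imprecise.

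**Figure D5:**
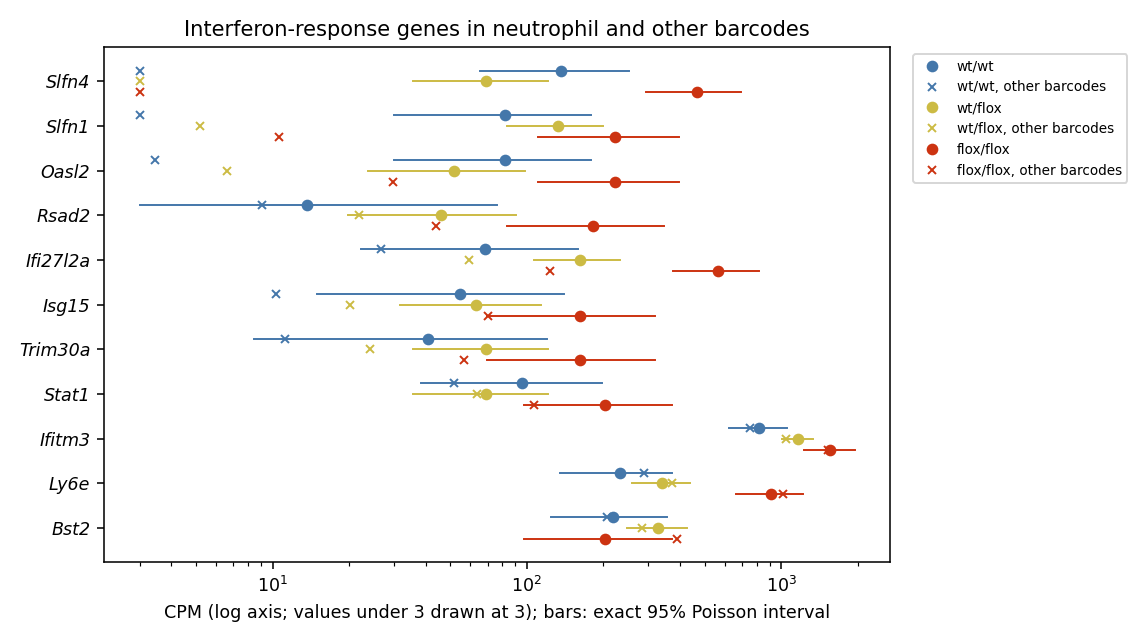
CPM of 11 interferon-response genes (x axis, log scale) in neutrophil barcodes (circles, with exact Poisson intervals) and all other kept barcodes (crosses). Slfn4, Slfn1 and Oasl2 lie above the crosses in all 3 libraries and are highest in flox/flox, while Ifitm3 and Ly6e lie on or close to them.

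The same list was set beside that of other cells. In monocytes it stood at 5696, 6549 and 8198 CPM, with a log2 ratio of 0.53 (0.36 to 0.69) for flox/flox against wt/wt. In Kupffer cells the ratio was 1.09 (0.99 to 1.18), and in all remaining barcodes 1.41 (1.38 to 1.44), against 1.48 (1.21 to 1.74) in neutrophils. After free RNA was subtracted the neutrophil ratio was 1.12 (0.70 to 1.55). Among barcodes with at least 1000 UMIs it was 0.89, but 79 of 86 wt/wt and 44 of 54 flox/flox neutrophils lay under that limit. The Kupffer ratio is not given at these settings, so no order of neutrophils and Kupffer cells follows. A difference between cell types was not tested, since each library gives 1 value. Free RNA enters all of the unsubtracted sums.

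Promoters of an interferon gene with and one without the motif of interferon-activated factors are shown. GAAANNGAA, a core of the interferon-stimulated response element, was searched on both strands in 250 bases upstream and stood in 18 of 42 interferon list genes with a promoter (42.9%), 8.18% of 27025 genes and 7.13% of 32851 windows. Capitals mark the matches, 3 overlapping ones in Isg15.
Isg15, chr4:156200819-156200918, minus strand: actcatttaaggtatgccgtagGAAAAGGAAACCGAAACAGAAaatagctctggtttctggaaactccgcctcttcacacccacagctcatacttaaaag
Slfn4, chr11:83175086-83175185, plus strand: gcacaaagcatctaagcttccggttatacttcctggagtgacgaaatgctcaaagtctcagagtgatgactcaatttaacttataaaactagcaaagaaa
The Slfn4 window holds no match, and neither do the windows of Slfn1 and Oasl2.

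Beyond granule and interferon genes, 4 further genes were named as higher in flox/flox than in both other libraries. The rule took up to 10 genes in each direction by the interval bound nearest 0. The 210 eligible genes had at least 30 UMIs over the 3 libraries. They also had at least 2 times the CPM of other barcodes in the library where their neutrophil CPM was highest. A gene could thus pass through flox/flox alone, and the place of flox/flox follows from the choice. Cd53, a leukocyte tetraspanin, had 6, 19 and 19 UMIs (82.0, 109 and 384 CPM) in 6, 18 and 16 neutrophils, with ratios of 2.23 (0.85 to 3.84) against wt/wt and 1.81 (0.82 to 2.81) against wt/flox. Hipk1, a nuclear kinase, had 5, 21 and 15 UMIs, Sf3b1, a splicing factor, 10, 21 and 17, and Gpi1, a glycolytic enzyme, 11, 29 and 18. For Sf3b1 and Gpi1 the other barcodes held 154 and 150 CPM in flox/flox, so part of those UMIs can be free RNA. After subtraction the interval held 0 for Hipk1 against wt/flox (-0.20 to 2.43), for Sf3b1 against wt/wt (-0.24 to 3.85) and for Gpi1 against wt/wt (-0.11 to 3.81) and wt/flox (-0.23 to 2.30).

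The rule named 3 genes that were lower in flox/flox than in both other libraries. S100a11, a calcium-binding protein of the S100 family, had 103, 232 and 41 UMIs (1407, 1334 and 829 CPM), against 22.9, 32.0 and 32.8 CPM in other barcodes. S100a11 was seen in 62 of 86 (72.1%), 132 of 187 (70.6%) and 24 of 54 (44.4%) neutrophils, and after thinning in 58.1%, 55.1% and 33.3%. Its log2 ratio was -0.76 (-1.32 to -0.23) against wt/wt and -0.69 (-1.20 to -0.20) against wt/flox, and -1.43 and -1.48 after subtraction. Dusp1, a phosphatase that switches off MAP kinases, had 62, 138 and 22 UMIs (847, 794 and 445 CPM), with ratios of -0.93 (-1.70 to -0.21) and -0.83 (-1.56 to -0.18). It was seen in 47 of 86, 95 of 187 and 14 of 54 neutrophils. Tnfaip2, induced by tumour necrosis factor, had 20, 49 and 4 UMIs (273, 282 and 80.9 CPM), with ratios of -1.76 (-3.76 to -0.18) and -1.80 (-3.73 to -0.35). The rule took only genes lower in flox/flox than in both other libraries, so the place of flox/flox follows from the choice. For wt/flox against wt/wt the ratios were -0.08 (-0.42 to 0.27) for S100a11 and -0.09 (-0.54 to 0.36) for Dusp1. For Tnfaip2 that ratio was 0.04 (-0.73 to 0.87), and all 3 intervals held 0.

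Dusp1 belongs to the immediate early genes, which cells switch on within minutes of a stimulus. Their 14 genes had 205, 554 and 106 UMIs (2801, 3186 and 2144 CPM), against 859, 1409 and 877 CPM in other barcodes. The log2 ratio of sums was -0.39 (-0.74 to -0.04) against wt/wt and -0.57 (-0.89 to -0.27) against wt/flox. Dusp1, named above because it was lower in flox/flox, is part of these sums. They are thus partly fixed by that choice and give no separate support, and a sum without Dusp1 is not given. Of 11 measured members, 4 were lower, Dusp1 among them, and 2 higher in flox/flox than in wt/wt. Of all measured genes 20.9% were lower and 20.3% higher. Junb, an AP-1 subunit, had 29, 75 and 11 UMIs (396, 431 and 222 CPM), and Fos, its partner, 26, 56 and 11. In the opposite direction Klf6, a zinc-finger factor, had 9, 19 and 13 UMIs (123, 109 and 263 CPM). Median mitochondrial shares in neutrophils were 4.65%, 3.50% and 6.88%, highest in flox/flox, and their part in the difference was not tested.

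Between wt/flox and wt/wt, 10 genes were named as lower and 8 as higher in wt/flox. Mxd1 had 50, 45 and 24 UMIs (683, 259 and 485 CPM) and a log2 ratio of -1.40 (-2.01 to -0.79) for wt/flox against wt/wt. Mxd1 was seen in 38 of 86, 41 of 187 and 18 of 54 neutrophils (44.2%, 21.9% and 33.3%), and after thinning in 33.7%, 13.9% and 27.8%. Hdc had 34, 38 and 18 UMIs (464, 219 and 364 CPM), with a ratio of -1.09 (-1.79 to -0.38). Zyx, the focal adhesion protein zyxin, had 27, 21 and 13 UMIs (369, 121 and 263 CPM), Igf1r, the receptor for insulin-like growth factor 1, 18, 14 and 6, and Gpcpd1, a phosphodiesterase, 25, 21 and 19. Grina, Ngp, Ltf and Lcn2 were named as lower too, the last 3 being abundant in the granule-rich barcodes. For Mxd1, Hdc and Zyx the flox/flox CPM lay between the other libraries, but this order was not stable. The Hdc ratio of flox/flox against wt/flox was 0.74 (-0.16 to 1.58), and -0.036 after free RNA was subtracted, and that of Mxd1 was -0.41 with at least 1000 UMIs per barcode.

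Among the genes named as higher in wt/flox, Lyz2, lysozyme of myeloid cells, had 50, 171 and 22 UMIs (683, 983 and 445 CPM) with a ratio of 0.53 (0.06 to 1.01), and -0.19 without barcodes holding 2 or more monocyte marker UMIs. Ifitm2, an interferon-induced membrane protein, had 560, 822 and 849 CPM, against 233, 290 and 226 CPM in other barcodes. Samhd1, which degrades deoxynucleotides, had 7, 39 and 4 UMIs. Ncor1, Gnai3, Kpna4, Ccpg1 and Laptm5 completed the list, and Gnai3 and Kpna4 had 2 UMIs each in wt/wt.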

How the data were processed

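Liver cells of 3 mouse groups, 1 library each, were profiled with the 10x 3' kit. The authors deposited 1 matrix of raw UMI counts, made with Cell Ranger 6.1.1 per the file headers, and Seurat and mm10 are named in the submitters' processing notes. The number after the hyphen of a barcode gives its library, per the labels. The members and gene lists were chosen with earlier results of these data known.

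UMIs were summed over neutrophil barcodes per library (73198, 173880 and 49447 UMIs) in Python 3.11.15 with numpy 2.4.6, scipy 1.17.1 and pandas 2.3.3, and divided by their total to give CPM. CPM carry exact Poisson intervals, log2 ratios exact conditional binomial intervals and shares exact Clopper-Pearson intervals. Counts under 3 were set to 3 in a ratio, and no ratio was formed where both were at most 3. Free RNA was estimated from 12 hepatocyte markers and the profile of other barcodes. A gene was measured with 20 UMIs over the libraries. Lists held 34 sets of genes. Barcodes were thinned to 600 UMIs with a fixed seed, and 0 neutrophils were shallower. The ratio and its intervals were tested on simulated data. Named genes were the 25 leading by ratio over other barcodes and up to 10 per direction and comparison by the interval bound nearest 0, without mitochondrial, ribosomal, predicted and Y-linked genes and Xist. Alternatives covered the marker, UMI and mitochondrial limits, the scaling, the free RNA and the minimum UMIs. Mx1 and Mx2 were not matched in the files. Coordinates are mm10 (GRCm38). Some named genes are not reported here.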

Additional observations from a re-analysis of the deposited data

How the results depend on the processing

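No paired analysis was possible because each group has 1 library. The 141 alternatives of the shares and of the summed interferon and granule lists left 116 within the counting interval, moved 23 and reversed 2, and of 2392 alternatives of other results 2204 stayed, 177 moved and 11 reversed. With at least 1000 UMIs per barcode, which keeps few barcodes, the shares were 0.218%, 1.25% and 0.250%, the summed interferon log2 ratios 0.89, 0.74 and 0.15, their enriched members 1.04 (flox/flox over wt/wt) and 0.99 (over wt/flox), the granule sum 0.33 and -0.77 (wt/flox over wt/wt), the granule median -0.039, Laptm5 -0.60 (wt/flox over wt/wt), Mxd1 -0.41 (flox/flox over wt/flox), and alarmin and protease inhibitor genes 0.16 (wt/flox over wt/wt). There 18 gene ratios gave no value because a count under 3 hid the direction. Subtracting free RNA gave interferon 1.12 and 0.76, its enriched members 1.49 and 1.30, granule genes 0.21 and 0.59, MHC class I presentation -0.31 (over wt/wt), and, for flox/flox over wt/flox, adhesion -0.31, alarmin -0.55, receptor -0.24 and other neutrophil marker genes -0.085, 5 reversals in all. Without the granule-rich barcodes, an alternative chosen after seeing the data, granule genes were 0.042, -0.0027 and 0.045 and alarmin genes -0.048 (flox/flox over wt/flox). At least 10 marker UMIs gave 1.55% neutrophils in wt/flox and 1.24 for granule genes over wt/flox, removal of barcodes with monocyte markers 1.35 and -0.54 for granule genes and -0.19 for Lyz2, and the barcodes with less hepatocyte RNA 1.06 and -0.027. The share was not computed for those, since the choice fixes it. The cause of these changes was not tested. Counts of measured genes past 1.5-fold ranged, with flox/flox over wt/wt, from 69 to 763 higher (461 as reported) and 132 to 545 lower (475), over wt/flox from 85 to 1388 (438) and 134 to 496 (491), and with wt/flox over wt/wt from 81 to 686 (472) and 74 to 743 (318). Depth limits single genes: 3 UMIs equal 41.0, 17.3 and 60.7 CPM in the neutrophils of the 3 libraries (wt/wt first, flox/flox last).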
